A study of Homo sapiens with 12 samples.

Results

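The TEAD factors and their Hippo cofactors were examined in SOX11 knockdown and control cultures of Granta 519, an established human line of mantle cell lymphoma (MCL), a B cell malignancy. The group was set by gene name and comprised 9 genes, TEAD1, TEAD2, TEAD3, TEAD4, YAP1, WWTR1, VGLL4, LATS1 and LATS2, of 18417 genes with a probe set of their own. Each of the 9 genes had 1 probe set on the Human Gene 1.0 ST array that listed its symbol and no other. TEAD2 has been described as a direct target of SOX11 in neural and mesenchymal progenitors. The 12 arrays comprised 4 of cells nucleofected with SOX11 siRNA, 4 of cells nucleofected with a non-targeting control siRNA and 4 of untreated cells. Each transfection used 4000000 cells and 100 pmol of siRNA, and RNA was taken after 20 hours. All 3 groups were cultures of this single line, which expresses SOX11, and the knockdown was transient. The untreated cells had received neither electroporation nor siRNA, so the control siRNA arrays are the matched control for the knockdown.

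The Hippo pathway is a chain of kinases in which MST kinases, with the scaffold protein SAV1, activate the LATS kinases, and these phosphorylate the coactivators YAP and TAZ. Phosphorylated YAP and TAZ are kept out of the nucleus, and unphosphorylated YAP and TAZ enter it and bind TEAD transcription factors, which carry the DNA-binding domain. VGLL4 competes with YAP for TEAD. The pathway is best known for its control of organ size and cell proliferation in adherent tissues, whereas in blood cells the MST kinases are known mainly for roles in lymphocyte adhesion and trafficking.

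The targeted gene, SOX11, had signals of 188 to 229 after its knockdown, 1026 to 1191 with control siRNA and 978 to 1041 without treatment. Median array signals ran from 69.2, on SOX11 siRNA replicate 3, to 91.8, on SOX11 siRNA replicate 4, and the lowest Pearson's r between arrays of a group was 0.989. The 7 genes listed as B cell markers were MS4A1, CD79A, CD79B, PAX5, CD22, BLNK and CCND1. CCND1 encodes cyclin D1, which the paper describes as dysregulated in MCL by a translocation, so it does not mark B cells as such. The sum is led by the bright probe sets of MS4A1 and CCND1. It can hide a change of a single gene, such as the fall of CD22 against untreated cells described below. The summed signal was 11266 to 13982 over the SOX11 siRNA arrays and 11463 to 13470 over the control siRNA arrays. Over the untreated arrays the summed signal was 12544 to 13874. That of 6 fibroblast markers was 313 to 448, 360 to 394 and 392 to 444, and that of 6 epithelial markers 498 to 700, 510 to 670 and 509 to 585, in the same order. The 7 T and NK cell markers summed to 241 to 362, the 5 myeloid markers to 168 to 257 and the 5 endothelial markers to 844 to 1106 over all 12 arrays. No marker gene was at 0 on every array of a group, which says little, since only 73 to 144 of the 33297 probe sets were at 0 on an array. All arrays were of this single line, and the part of other cell types in the results was not tested. As the RNA is that of whole cultures, fewer cells of a type and less RNA per cell cannot be told apart. Signals are compared between arrays, for a gene or for the sum of a list, and never between genes, since each probe set has its own brightness.

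Promoter sequences are shown for TEAD2, because it was the gene of the group that changed, for TEAD3, as the TEAD paralog with a promoter window in the reference table, and for CCN2, a gene known for its activation by YAP and TEAD. The sequences are those of RefSeq on the GRCh38.p14 build, 300 bases around an annotated start site and read along the gene's strand. They held windows for 7 of the 9 genes, all but TEAD1 and TEAD4. Capitals mark matches to AACAAT or ACAAAG, words of the kind bound by SOX proteins, and to GGAATG, the core of the TEAD site, each searched on both strands, with overlaps between words allowed.
TEAD2, upstream start site, chr19:49362367-49362666, minus strand: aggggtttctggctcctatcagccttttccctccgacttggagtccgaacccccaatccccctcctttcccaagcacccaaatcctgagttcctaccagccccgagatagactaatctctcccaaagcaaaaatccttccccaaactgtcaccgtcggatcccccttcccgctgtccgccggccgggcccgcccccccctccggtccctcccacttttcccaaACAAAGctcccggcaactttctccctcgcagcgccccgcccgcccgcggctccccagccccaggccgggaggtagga
TEAD2, downstream start site, chr19:49361468-49361767, minus strand: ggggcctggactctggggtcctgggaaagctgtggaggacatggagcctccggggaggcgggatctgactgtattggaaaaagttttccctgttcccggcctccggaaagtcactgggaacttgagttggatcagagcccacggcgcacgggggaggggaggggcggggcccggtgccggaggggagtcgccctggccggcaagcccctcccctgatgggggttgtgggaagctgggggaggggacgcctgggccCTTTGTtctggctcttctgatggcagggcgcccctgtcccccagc
TEAD3, chr6:35497030-35497329, minus strand: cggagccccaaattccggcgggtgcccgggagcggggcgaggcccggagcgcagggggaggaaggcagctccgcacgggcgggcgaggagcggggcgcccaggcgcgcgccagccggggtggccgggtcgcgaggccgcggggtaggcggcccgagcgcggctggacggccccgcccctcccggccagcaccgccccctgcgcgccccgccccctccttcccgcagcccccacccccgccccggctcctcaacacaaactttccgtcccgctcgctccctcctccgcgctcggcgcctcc
CCN2, chr6:131951323-131951622, minus strand: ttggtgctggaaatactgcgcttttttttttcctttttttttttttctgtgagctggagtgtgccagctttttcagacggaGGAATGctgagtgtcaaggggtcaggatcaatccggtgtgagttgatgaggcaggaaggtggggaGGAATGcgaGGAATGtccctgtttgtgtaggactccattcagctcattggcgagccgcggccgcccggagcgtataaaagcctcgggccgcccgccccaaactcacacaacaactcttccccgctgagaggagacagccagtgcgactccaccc
Both TEAD2 windows held ACAAAG once, from base 224 of the upstream window and, on the opposite strand, from base 256 of the downstream window, and neither held AACAAT. Among all 35116 windows of the table, 16.1% held ACAAAG and 10.1% held AACAAT, and among the 14 windows of the group these were 5 and 2. The other windows of the group with ACAAAG were both windows of WWTR1 and 1 of 5 of VGLL4, and those with AACAAT were 1 window each of LATS1 and LATS2. The CCN2 window held GGAATG at bases 82, 147 and 156. GGAATG was found in 8 of 17 windows of the YAP/TAZ-TEAD target genes (47.1%), in 14% of all windows and in 2 of the 14 windows of the group (YAP1 and LATS2). Such matches describe the sequence and do not show that a factor binds there.

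TEAD2 was lower after SOX11 knockdown than in both control groups. Its signal was 98.2, 102, 66.7 and 93.8 on SOX11 siRNA replicates 1 to 4 and 146, 168, 153 and 167 on control siRNA replicates 1 to 4. On the untreated arrays it was 159, 172, 172 and 178. Every SOX11 siRNA array lay below every control siRNA and every untreated array, with replicate 3 the lowest of all. The mean signal fell from 159 ± 10.9 (SD, n = 4 arrays) with control siRNA to 90.1 ± 15.9 (SD, n = 4) with SOX11 siRNA, a linear change of -43.2%. On the log2(value + 16) scale, where the added 16 damps the noise of dim probe sets and makes their changes smaller, the log2 fold change was -0.73 (standard error, SE, 0.109, 95% interval -0.96 to -0.50, adjusted p = 0.00812 from limma over 33297 probe sets). By p value TEAD2 was at rank 26 of the 33297 probe sets in this comparison, and at rank 44 by the size of the fall. Against untreated cells the log2 fold change was -0.83 (95% interval -1.06 to -0.59, adjusted p = 0.000652), a comparison that shares the SOX11 siRNA arrays with the first. Between control siRNA and untreated cells the log2 fold change of TEAD2 was -0.095 (95% interval -0.33 to 0.14, adjusted p = 0.872), and those groups overlapped.

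Whether TEAD2 was called depended on the fit and on the arrays used. The adjusted p of TEAD2 was 0.0612 with the one-way analysis of variance that the methods name, run on all 12 arrays, 0.0548 in a limma fit of the 8 siRNA arrays alone and 0.0502 without control siRNA replicate 2. Without SOX11 siRNA replicate 3, the array with the lowest TEAD2 signal and the lowest median signal, the log2 fold change was -0.62 and the adjusted p 0.0094.

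**Figure D1:**
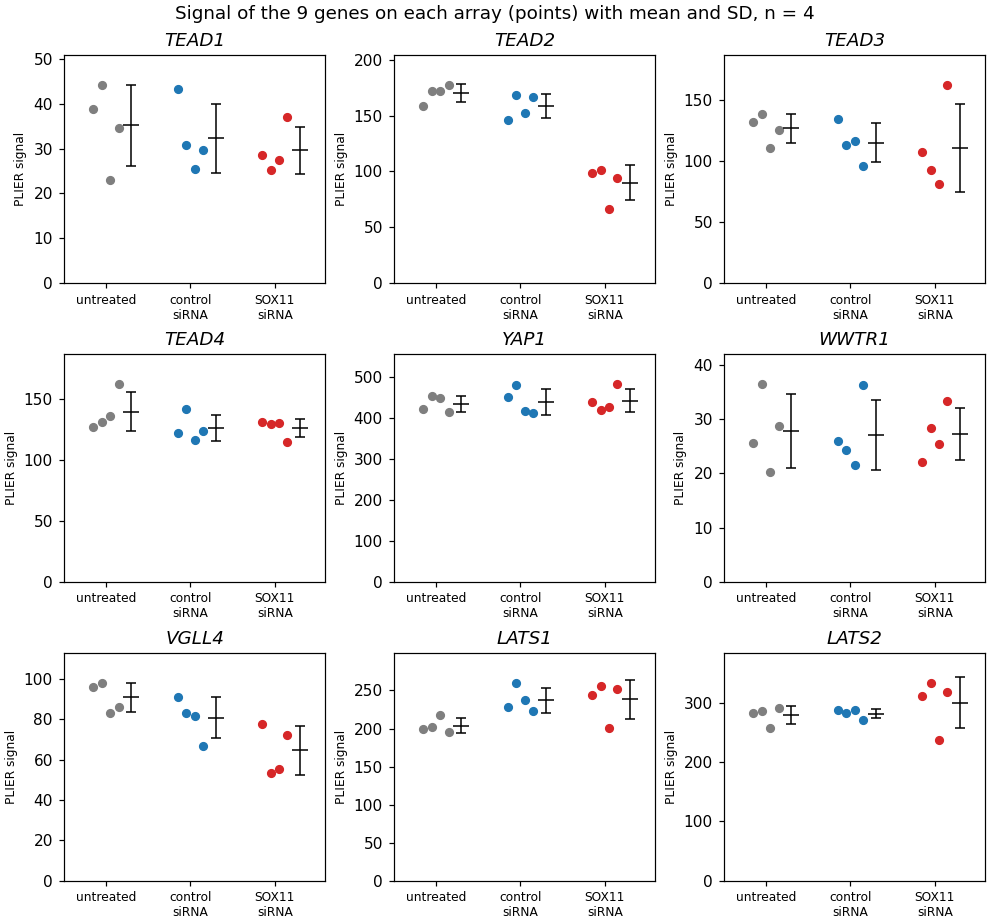
PLIER signal (linear, vertical axis from 0) of each of the 9 genes on the 4 arrays of each group (points, replicates 1 to 4 from left to right), with the mean and SD beside them. TEAD2 is the gene whose SOX11 siRNA arrays (66.7 to 102) lie wholly below both other groups, and VGLL4 lies wholly below the untreated arrays only.

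The other TEAD genes, which encode proteins that bind the same DNA element, did not pass the test in any of the 3 comparisons. TEAD4 had a signal of 131, 129, 130 and 115 on the SOX11 siRNA arrays and 122, 141, 116 and 124 on the control siRNA arrays. These ranges overlapped, and the log2 fold change was 0.0030 (95% interval -0.20 to 0.21, adjusted p = 1 from limma). TEAD3 was at 108, 92.3, 80.9 and 163 with SOX11 siRNA and at 134, 113, 117 and 95.6 with control siRNA, a log2 fold change of -0.077 (95% interval -0.41 to 0.25, adjusted p = 1). Its SOX11 siRNA arrays were more spread (SD 36.2) than its control siRNA arrays (SD 15.9), with replicate 4 the highest of all 12. TEAD1, with a mean below that of the median probe set, ranged from 25.2 to 37.1 with SOX11 siRNA, from 25.4 to 43.3 with control siRNA and from 23.0 to 44.3 in untreated cells. Between knockdown and control siRNA it had a log2 fold change of -0.076 (95% interval -0.37 to 0.22, adjusted p = 1). For TEAD1, TEAD3 and TEAD4 the lower end of the interval lay above the TEAD2 estimate of -0.73. That sets an interval against an estimate, leaves out the spread of TEAD2 and is no test of a difference.

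Whether TEAD2 changed differently from its paralogs was tested on the same arrays by the within-array difference of log2(value + 16). TEAD2 minus TEAD4 was -0.43 ± 0.26 after SOX11 knockdown and 0.30 ± 0.08 with control siRNA (SD, n = 4 arrays each), a difference of -0.73 with no overlap between the groups (two-sided exact permutation test, p = 0.0286, the smallest that 4 against 4 arrays can give). TEAD2 minus TEAD1 differed by -0.65 and TEAD2 minus TEAD3 by -0.65 between the siRNA groups (exact permutation p = 0.0571 for each). Adjusted over the 3 pairs compared, each of the 3 exact permutation p values was 0.0571, so at the 0.05 level the change of TEAD2 was not shown to differ from that of any 1 paralog on all 8 arrays and these values. The adjusted exact permutation p was 0.0429 for TEAD3 and TEAD4 with quantile normalization and without SOX11 siRNA replicate 2, and 0.0429 for TEAD1 and TEAD4 without control siRNA replicate 1. In each pair the mean moved towards a lower TEAD2, and for TEAD1 and TEAD3 the groups overlapped.

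**Figure D2:**
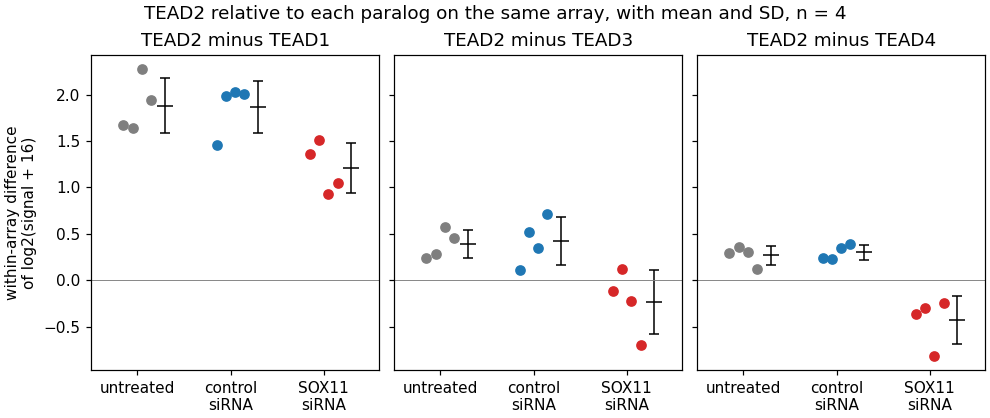
Within-array difference of log2(value + 16) between TEAD2 and each other TEAD gene (vertical axis) on the 4 arrays of each group, with the mean and SD. Only shifts between groups can be read, since the height of a panel depends on the probes; in the panel for TEAD4 the SOX11 siRNA arrays lie below all others, by 0.73 on average against control siRNA.

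The coactivators did not pass the test in any comparison. YAP1, which encodes YAP, had signals of 438, 418, 427 and 483 with SOX11 siRNA and 451, 479, 416 and 411 with control siRNA. In untreated cells YAP1 was at 421, 452, 447 and 413, and all 3 groups overlapped. The log2 fold change of YAP1 was 0.0085 (95% interval -0.18 to 0.19, adjusted p = 1 from limma) between the siRNA groups and 0.025 (95% interval -0.16 to 0.21, adjusted p = 0.922) against untreated cells. WWTR1, which encodes TAZ, was dim, with signals of 22.0 to 33.3 with SOX11 siRNA, 21.5 to 36.3 with control siRNA and 20.3 to 36.6 in untreated cells. Its log2 fold change was 0.012 (95% interval -0.26 to 0.29, adjusted p = 1). The deposited tables give no detection call per probe set, so whether so dim a signal is above background was not tested.

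VGLL4, the cofactor that competes with YAP for TEAD, had the next lowest fold change of the group. Its signals were 77.7, 53.3, 55.5 and 72.4 with SOX11 siRNA, 91.4, 83.1, 81.9 and 66.8 with control siRNA and 95.9, 98.3, 83.4 and 86.3 in untreated cells. The siRNA groups overlapped, through control siRNA replicate 4, while every SOX11 siRNA array lay below every untreated array. The log2 fold change was -0.27 between the siRNA groups (95% interval -0.51 to -0.022, unadjusted p = 0.0345, adjusted p = 1 from limma) and -0.42 against untreated cells (unadjusted p = 0.00252, adjusted p = 0.0774). With quantile normalization the latter was -0.31 with an adjusted p of 0.0219, and without SOX11 siRNA replicate 1 it was -0.49 with an adjusted p of 0.0441. Quantile normalization raised the number of probe sets called against untreated cells from 800 to 2378 of 33297. In that comparison the SOX11 siRNA arrays lay wholly below the untreated arrays for 5.54% of all probe sets and wholly above them for 2.3%.

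The LATS kinases, which phosphorylate YAP and TAZ, showed no change that passed the test. LATS1 had signals of 245, 256, 200 and 252 with SOX11 siRNA, 229, 260, 237 and 223 with control siRNA and 200, 202, 218 and 195 in untreated cells. The control siRNA arrays lay above all untreated arrays, as did 3 of the 4 SOX11 siRNA arrays. The log2 fold change of LATS1 was 0.20 for control siRNA against untreated cells (95% interval 0.0029 to 0.41, unadjusted p = 0.0472, adjusted p = 0.572 from limma), 0.21 for SOX11 siRNA against untreated cells (adjusted p = 0.321) and 0.0024 between the siRNA groups (adjusted p = 1). With quantile normalization it was 0.24 for SOX11 siRNA against untreated cells, with an adjusted p of 0.0294. The first and second of these comparisons share the untreated arrays. Among all probe sets the control siRNA arrays lay wholly above the untreated arrays for 2.11% and wholly below them for 5.85%. LATS2, itself a YAP target gene as well as a kinase of the pathway, was at 311, 334, 237 and 319 with SOX11 siRNA and 288, 282, 288 and 271 with control siRNA. The log2 fold change of LATS2 was 0.075 (95% interval -0.14 to 0.29, adjusted p = 1), and the SOX11 siRNA arrays were more spread (SD 43.4) than the control siRNA arrays (SD 7.84), through the low replicate 3.

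Of the 9 genes, 1 was lower (TEAD2) and 0 higher between the siRNA groups at an adjusted p under 0.05, where limma called 0.18% of all 33297 probe sets lower and 0.003% higher (0.183% in all). For TEAD2 the siRNA groups did not overlap, as for 1.35% of all probe sets in the lower direction and 0.601% in the higher. At an unadjusted p under 0.05 there were 2 of the 9 (TEAD2 and VGLL4), against 4.26% of all probe sets. Between control siRNA and untreated cells 0 of 9 passed, against 0.387% of all probe sets called (0.216% lower and 0.171% higher), and 1 (LATS1) had an unadjusted p under 0.05, against 8.57%. In the methods' analysis of variance 0 of 9 passed there as well. Between SOX11 siRNA and untreated cells 1 was lower (TEAD2) and 0 higher, against 2.4% of all probe sets called (1.6% lower and 0.805% higher), and 3 (TEAD2, VGLL4 and LATS1) had an unadjusted p under 0.05, against 14.9%. The median log2 fold change of the 9 genes was 0.0024 between the siRNA groups, -0.080 for control siRNA and -0.12 for SOX11 siRNA against untreated cells, where over all probe sets it was 0.0061, -0.056 and -0.058.

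**Figure D3:**
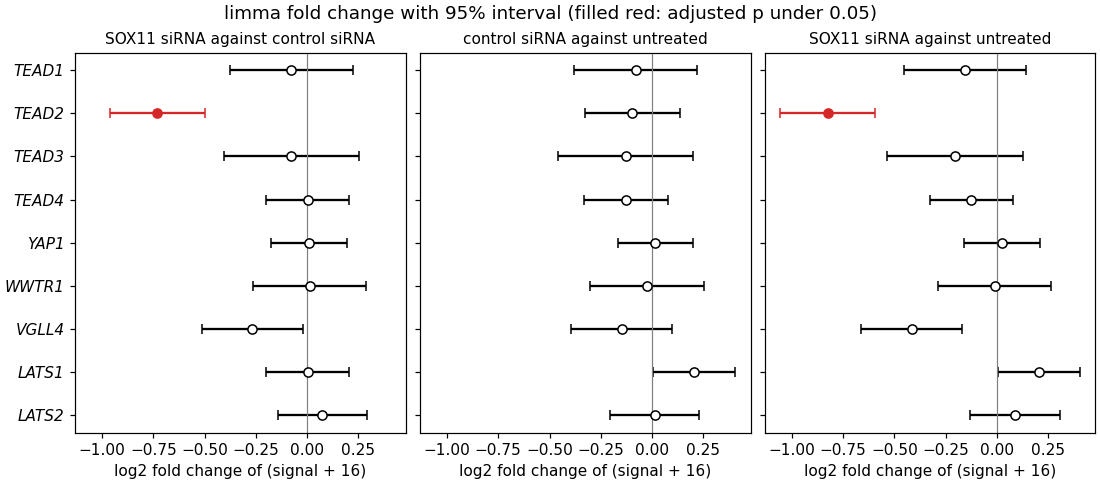
Log2 fold change on the log2(value + 16) scale (horizontal axis) of each gene in the 3 comparisons, with the 95% interval from limma; filled red points passed an adjusted p of 0.05. TEAD2 stands at -0.73 against control siRNA and -0.83 against untreated cells, and the other 8 genes lie between -0.27 and 0.075 in the comparison of the siRNA groups.

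The expression of TEAD2 over the 12 arrays was most like that of CNOT6, a catalytic subunit of the CCR4-NOT deadenylase (Pearson's r = 0.982 on the log2(value + 16) scale, of 18416 other genes). TIAM1, an exchange factor for RAC, followed with r = 0.981, then NREP with 0.976, SESTD1 with 0.973 and INTS1, a subunit of the Integrator complex, with 0.972. SOX11 itself was at rank 32 with r = 0.947. Of the other genes of the group VGLL4 came highest, at rank 610 (r = 0.722), and LATS1 lowest (r = -0.221). This likeness is a description over 12 arrays that includes the difference between the groups. In the fit 4 of the 5 genes most like TEAD2 were called lower between the siRNA groups, against 0.18% of all probe sets. INTS1 did not pass (log2 fold change -0.42, adjusted p = 0.0974 from limma). As these genes were picked by their likeness to TEAD2 on the same arrays, their fall lends the TEAD2 result no separate support.

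Upstream of LATS, 18 of 20 listed kinases, scaffolds and activators of the pathway had a probe set of their own, and limma called 0 higher and 0 lower between the siRNA groups, with 3 of the 18 at an unadjusted p under 0.05, against 4.26% of all probe sets. The lowest p belonged to NF2, which encodes merlin, a membrane-linked scaffold that promotes LATS activation. NF2 had signals of 336, 327, 238 and 333 with SOX11 siRNA, 423, 408, 386 and 384 with control siRNA and 441, 449, 432 and 448 in untreated cells. Every SOX11 siRNA array lay below every other array. Of all probe sets, 1.35% lay wholly lower in this way against control siRNA and 5.54% against untreated cells. The log2 fold change of NF2 was -0.37 between the siRNA groups (SE 0.105, adjusted p = 0.414 from limma, and 0.0173 with quantile normalization). Quantile normalization raised the number of probe sets called between the siRNA groups from 61 to 225. NF2 fell by 0.51 on the log2 scale against untreated cells (SE 0.105, adjusted p = 0.0171), and was the 1 of 18 members that passed there, against 2.4% of all probe sets. That adjusted p was 0.0561 in a fit of the 8 arrays compared and 0.0536, 0.0542 and 0.0536 without untreated replicate 1, 2 or 4.

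The NDR kinase STK38L and the kinase MAP4K4 had log2 fold changes of -0.25 (unadjusted p = 0.0154) and -0.28 (unadjusted p = 0.022) between the siRNA groups, with adjusted p values of 0.885 and 0.992 from limma. With quantile normalization STK38L was at -0.29 with an adjusted p of 0.0461. Against untreated cells STK38L was at -0.33 (adjusted p = 0.084 from limma), with adjusted p values of 0.0035 with quantile normalization, 0.00688 with the replicate block added and 0.0477 without dim probe sets, where 2 members of the list passed. The core members were STK4 and STK3, which encode MST1 and MST2, the scaffold SAV1 and the LATS activator MOB1A. Their log2 fold changes were 0.078, 0.061, 0.16 and 0.14, each with an adjusted p of 1. The median of the list was -0.024, against 0.0061 over all probe sets. Of the STRIPAK complex, a phosphatase assembly that holds MST kinases inactive, 9 of 11 listed subunits were measured, with log2 fold changes from -0.039 to 0.16 between the siRNA groups, and 0 passed in any comparison, with 0 at an unadjusted p under 0.05 between the siRNA groups. With quantile normalization 1 subunit passed for SOX11 siRNA against untreated cells. The members with the lowest p were SLMAP, FGFR1OP2 and STRN, with log2 fold changes of 0.16, 0.13 and 0.11.

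Among 14 measured genes of YAP and TAZ binding partners, junctions and polarity, 0 passed in any of the 3 comparisons in limma, with 1 of 14 at an unadjusted p under 0.05 between the siRNA groups, against 4.26% of all probe sets, and 3 of 14 for SOX11 siRNA against untreated cells, against 14.9%. AMOTL1, an angiomotin that binds YAP and keeps it at junctions and in the cytoplasm, had the lowest p between the siRNA groups. Its signals were 297, 288, 221 and 328 with SOX11 siRNA, 382, 434, 382 and 353 with control siRNA and 363, 375, 379 and 405 in untreated cells. The SOX11 siRNA arrays lay below both other groups, as for 1.35% of all probe sets against control siRNA and 5.54% against untreated cells. The log2 fold change of AMOTL1 was -0.44 between the siRNA groups (SE 0.111, unadjusted p = 0.00115, adjusted p = 0.239 from limma) and -0.42 against untreated cells (adjusted p = 0.0623). With quantile normalization the adjusted p values of AMOTL1 were 0.00473 and 0.00256, where 225 and 2378 probe sets were called, against 61 and 800 without it. As for TEAD2, NF2 and LATS2, the lowest SOX11 siRNA signal of AMOTL1 was on replicate 3. Without that array, and without quantile normalization, the log2 fold change of AMOTL1 between the siRNA groups was -0.33. Its adjusted p was then 0.282 from limma, against 0.239 on all arrays. The phosphatase PTPN14, which is also a target gene, had a log2 fold change of 0.19 and the polarity gene LLGL1 one of -0.17, each with an adjusted p of 1. The vestigial-like cofactors VGLL1, VGLL2 and VGLL3 were at 0.16, 0.015 and -0.058, and 0 of the 3 passed, at an adjusted or an unadjusted p.

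The YAP/TAZ-TEAD target genes, a list of 21 genes compiled here from general knowledge and without LATS2, held no gene that passed the test between the siRNA groups. Of the 21, 0 were higher, 0 lower and 0 at an unadjusted p under 0.05, against 4.26% of all probe sets, and the log2 fold changes lay between -0.10 and 0.19 with a median of 0.021. CCN2, a secreted matricellular protein and one of the best known targets, had signals of 129, 147, 126 and 133 with SOX11 siRNA and 127, 133, 113 and 121 with control siRNA. CCN2 had a log2 fold change of 0.10 (95% interval -0.095 to 0.30, adjusted p = 1 from limma), with overlapping groups. CCN1 and ANKRD1, both dim, were at -0.019 (95% interval -0.30 to 0.27) and 0.040 (95% interval -0.20 to 0.28). The members with the lowest p were PTPN14, CRIM1 and FJX1, with log2 fold changes of 0.19, 0.15 and 0.12, each with an adjusted p of 1.

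In the target list 1 of 21 genes was called higher and 0 lower for SOX11 siRNA against untreated cells. Of all probe sets, 0.805% were called higher and 1.6% lower there. GADD45A, a growth arrest gene that many stresses induce, had signals of 586, 562, 505 and 496 with SOX11 siRNA, 513, 547, 602 and 490 with control siRNA and 285, 296, 429 and 426 in untreated cells. It rose with SOX11 siRNA against untreated cells (log2 fold change 0.58, SE 0.132, adjusted p = 0.029 from limma). The value for control siRNA against untreated cells was also 0.58 (adjusted p = 0.0758, and 0.0259 with quantile normalization), and between the siRNA groups it was -0.0010. The call of GADD45A was lost with log2(value + 1), with the analysis of variance, in the fit of the 8 arrays and without SOX11 siRNA replicate 1 or 2 or untreated replicate 1 or 2, where 0 members of the list passed. With quantile normalization FJX1 also passed, at 0.32 with an adjusted p of 0.0243.

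**Figure D4:**
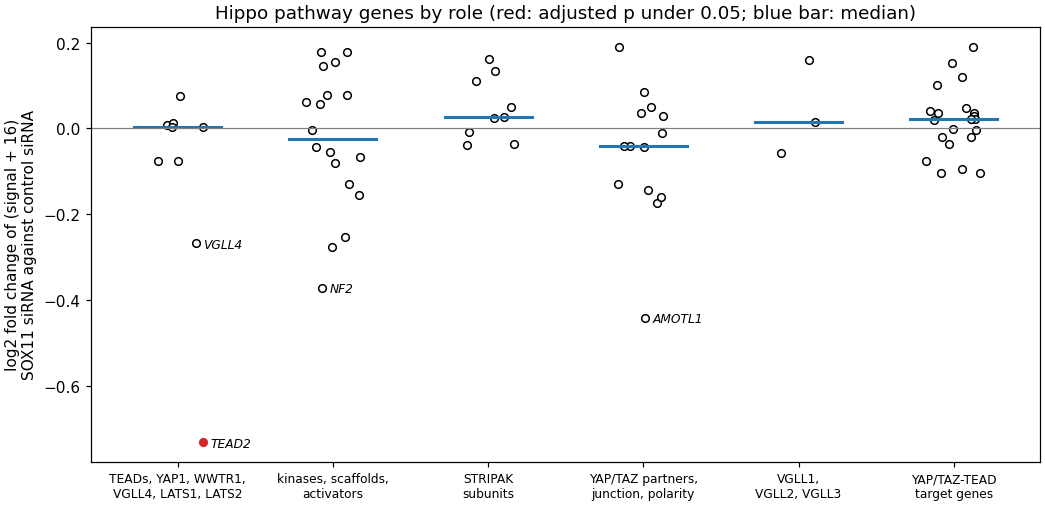
Log2 fold change between SOX11 siRNA and control siRNA on the log2(value + 16) scale (vertical axis) of each measured gene, by role in the pathway; blue bars are medians and the filled red point passed an adjusted p of 0.05. TEAD2 (-0.73) is the called gene, NF2 (-0.37) and AMOTL1 (-0.44) did not pass, and the target genes lie between -0.10 and 0.19.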

How the data were processed

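The deposited tables give intensity on a linear scale, 1 PLIER signal for each probe set on each array. The authors made these values in Affymetrix Expression Console 1.1 with GC-matched background correction (PM-GCBG) and global median normalization, per the file headers. The RMA values behind the paper's statistics were not used here. The sources used here name no build for the probe set annotation, and the promoter sequences are on GRCh38.p14. The 2 deposited tables differed in 0 cells, and columns with the authors' group means, fold changes and p-values were not used. Expression was analysed as log2(value + 16) of all 33297 probe sets, unfiltered and not normalized again. The 3 groups were fitted together in limma 3.58.1 (lmFit and eBayes, R 4.3.3), p values were adjusted over all probe sets (Benjamini-Hochberg), and calls were made at 0.05. Symbols came from GEO's platform annotation. A probe set named a gene if it listed 1 symbol (19460 did), and the one with the highest mean stood for a gene. Lists were counted, not tested. Genes named outside the group were, by rule, list members that passed, the 3 of each pathway list with the lowest p, and the 5 genes most like TEAD2. The core kinases, CCN1, CCN2 and ANKRD1 were named besides for their roles. The members and lists were chosen with earlier results of these data known.

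Alternatives were quantile normalization, median centring, log2(value + 1), leaving out dim probe sets, fitting the 8 arrays of a comparison alone, the one-way analysis of variance named in the methods, a block for replicate number (alone or with quantile normalization), and dropping each of the 12 arrays. Arrays have no read depth, and their number limits the precision. RNA came from individual transfection experiments. Nothing says that the untreated cultures were separate, so p values measure only the spread between these arrays. Intervals are 95% intervals of the fit.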

Additional observations from a re-analysis of the deposited data

Results flagged for a closer look

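TEAD4 on SOX11 siRNA replicate 4, with a signal of 114.55, stood apart from the other 3 arrays of its group, the nearest of which was at 129. Its gap to the nearest array was 0.911 of the range of the group, above Dixon's 95% critical value for 4 samples. Of the 27 groups of 4 arrays examined for the 9 genes, 1 was singled out in this way, where chance gives about 1 in 20.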

How the results depend on the processing

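TEAD2 kept its direction between the siRNA groups under all 8 other settings (log2 fold change -0.83 to -0.71) and without each of the 12 arrays in turn (-0.78 to -0.62, with 0 to 1 of the 9 genes called). It was no longer past the threshold in a fit of the 8 arrays compared (-0.73, adjusted p = 0.0548) and with the analysis of variance (-0.73, adjusted p = 0.0612), so that 0 of 9 genes were called with either. Against untreated cells the number called was 3 with quantile normalization, with or without the replicate block, adding VGLL4 (-0.31) and LATS1 (0.24), and 1 to 2 without 1 array.
The within-array differences of TEAD2 from TEAD3 and TEAD4 were -0.66 and -0.73 with quantile normalization, each with an adjusted exact permutation p of 0.0429. Without 1 array they lay between -0.79 and -0.56 for TEAD1, -0.77 and -0.50 for TEAD3 and -0.79 and -0.61 for TEAD4, with adjusted p values of 0.0429 to 0.0857 for each pair. Those of TEAD1 and TEAD4 passed without control siRNA replicate 1 and those of TEAD3 and TEAD4 without SOX11 siRNA replicate 2.
Probe sets called between the siRNA groups (61) were 225 with quantile normalization, 38 with log2(value + 1), 26 in the 8-array fit, 174 with quantile normalization plus the replicate block, and 27 to 70 without 1 array. For control siRNA against untreated cells (129) they were 644, 62, 217 and 628 in the same order, 250 without dim probe sets, and 70 to 232 without 1 array. For SOX11 siRNA against untreated cells (800) they were 2378, 463, 445 and 2419, 1321 with median centring, and 360 to 1179 without 1 array.
Fold changes that were near 0 and did not pass changed sign. Between the siRNA groups YAP1 was -0.017 and LATS1 -0.0065 with quantile normalization, with or without the block. For control siRNA against untreated cells TEAD1 was 0.0077 with quantile normalization, with or without the block, and 0.00060 with median centring, and WWTR1 was 0.066 and 0.057. For SOX11 siRNA against untreated cells WWTR1 was 0.11 and 0.091. Without 1 array the ranges between the siRNA groups were -0.15 to 0.027 for TEAD1, -0.25 to 0.039 for TEAD3, -0.029 to 0.053 for TEAD4, -0.034 to 0.049 for YAP1, -0.053 to 0.11 for WWTR1 and -0.032 to 0.078 for LATS1. For control siRNA against untreated cells they were -0.20 to 0.0051 for TEAD1, -0.024 to 0.047 for YAP1, -0.12 to 0.069 for WWTR1 and -0.022 to 0.034 for LATS2, and for SOX11 siRNA against untreated cells -0.017 to 0.050 for YAP1 and -0.098 to 0.081 for WWTR1. The cause of these changes was not tested.
Same-numbered arrays did not deviate together (r -0.25 to 0.29 over 12 pairs, 3 above 0.1, and in 7 of 24 cases an array's r was highest with its own number), so the numbers were not taken as pairs, and with the replicate block alone the adjusted p of TEAD2 was 0.0149. With no other probe set for the 9 genes, the alternative of other probe sets gave no value. TEAD1, WWTR1 and VGLL4 lay below the dim filter and have no value under it. The 4 arrays per group and the dim signals of TEAD1 and WWTR1 limit what could be detected.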

Other observations

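Among the cell markers checked, 2 genes differed between transfected and untreated cells. CD22, a B cell surface receptor that restrains B cell receptor signalling, fell with control siRNA against untreated cells (648 ± 27.8 against 944 ± 47.9, SD, n = 4 arrays each, log2 fold change -0.53, adjusted p = 0.0169 from limma) and with SOX11 siRNA (log2 fold change -0.48, adjusted p = 0.0118). KRT18, a keratin of simple epithelia, had signals of 130 to 191 with SOX11 siRNA, 149 to 170 with control siRNA and 86.2 to 129 in untreated cells, and it rose with SOX11 siRNA against untreated cells (log2 fold change 0.57, adjusted p = 0.0203), while control siRNA against untreated cells gave 0.56 with an adjusted p of 0.062. Between the siRNA groups the log2 fold changes were 0.049 for CD22 and 0.013 for KRT18. Both comparisons share the untreated arrays.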
